A study of Rattus norvegicus with 24 samples.

Results

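The genes described here are 10 that are commonly used as readouts of the glucocorticoid receptor and that are also reported to respond to androgens: Tsc22d3, Sgk1, Pdk4, Ddit4, Klf9, Errfi1, Cebpd, Angptl4, Cdkn1a and Glul. They were taken by name, through every array probe whose accession maps to the rat symbol, which gave 14 of the 41012 probes and 10 of the 8945 named genes on the array. Tsc22d3, Klf9, Cdkn1a and Glul had 2 probes each and the other 6 genes had 1. The samples were prostate, skin and forebrain of castrated male Sprague-Dawley rats and ovary of intact females, all 12 weeks old. Males received 10 mg/kg dihydrotestosterone (DHT) or vehicle by intraperitoneal injection 3 days after castration, and females the same dose or vehicle, with tissue taken 16 h later. The 8 groups were thus DHT and vehicle prostate, DHT and vehicle skin, DHT and vehicle forebrain, and DHT and vehicle ovary, with 3 arrays each. Castration was common to the DHT and vehicle males. The series' design text speaks of castrated males for all tissues, whereas each ovary sample is labelled as female and intact; groups here are those of the sample labels. The labels mention no removal of the adrenals and give no corticosteroid level for any group.

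Corticosteroids and androgens act through closely related nuclear receptors, which bind very similar DNA elements, so that the same gene can respond to either hormone. In many tissues glucocorticoids raise Tsc22d3, Sgk1, Ddit4 and Klf9 within hours, and they are known for damping inflammation, restraining growth and shifting fuel use from glucose to fat. Several of the genes answer other signals as well, among them fasting (Pdk4, Angptl4), low oxygen (Ddit4), growth factors (Errfi1), cytokines (Cebpd) and the tumour suppressor p53 (Cdkn1a).

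Levels are log2 of the array signal minus the 75th percentile of the same array, so 0 is the signal of a spot at that percentile and 1 unit is a doubling. They can be compared between samples for the same probe, not between genes. Forebrain vehicle array 3 is labelled as failing the submitters' quality standards and was not used, which leaves 23 of 24 arrays. On these, 54.6% to 97.0% of probes were well above background, and the highest shares were on ovary vehicle arrays 1 and 3. Arrays of skin were dim, with a 75th percentile of 55.4 to 378.9 signal units, against 486.2 to 2376 in the other tissues. Markers of skin, forebrain and ovary followed the tissue labels. The mean level of 6 keratinocyte genes was 5.10 to 5.90 on skin arrays and at most 0.96 elsewhere. That of 8 neuronal genes was above 0 only in forebrain, and that of 9 ovarian granulosa, theca and luteal genes only in ovary. The mean of 6 prostate secretory genes set prostate apart by little. It was -0.32 on prostate DHT array 2 and 0.49 to 2.31 on the other prostate arrays, against at most -0.33 elsewhere. Spots marked as outliers were left out of these marker means. Among the secretory genes, Andpro and Krt18 had values on 2 prostate DHT arrays, averaging 7.96 and 8.22. A mean without such a bright gene is lower for that reason, so these means are not fully comparable. Each slide held 1 array of every tissue and 1 treatment, so treatment and slide cannot be told apart. Whole tissue was measured, so fewer cells of a type and less RNA per cell cannot be told apart either.

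Because the genes are united by the DNA element that their receptors share, their promoters were searched for its letters. RefSeq (GRCr8) gave 14 windows for 9 of the 10 genes, from 250 bases before to 50 after a transcript start, and none for Cebpd. The full palindrome, AGAACA and TGTTCT with 3 bases between them, was in 0 of the 14 windows, on either strand, against 0.0149% of the 33469 windows of all genes. A relaxed core, GNACA and TGTNC with 3 bases between them, was in 0 against 0.439%, and the half-site AGAACA, which the full palindrome contains, in 0 against 20.7%. That says only that these letters are not in these windows; elements further away were not searched. Other letters, chosen after these windows had been seen, were found: GGGCGG in 10 windows of 7 genes (33.1% of all windows), TATAAA in 5 windows of 4 genes (14.2%), GTAAACA in 2 windows of 2 genes (3.78%) and TGACGTCA in 0 (1.83%). The 250 bases before the start are shown for 4 genes on which the results below turn, with matches to any of these letters, on either strand, in capitals. Tsc22d3 has 3 windows, of which window 1 is shown (chrX:109010035-109010284, minus strand). That window has TATAAA at position -44 and the complement of GTAAACA at -162, counted from the start. Windows 2 and 3 hold neither, and have GGGCGG, on either strand, at -243, -112 and -70 (window 2) and at -68 (window 3). Errfi1 (chr5:166606591-166606840, plus strand) has GGGCGG at -72 and TATAAA at -35. Klf9 (chr1:230126396-230126645, plus strand) has GTAAACA at -133, and Pdk4 (chr4:34568330-34568579, minus strand) has GGGCGG at -95.
Tsc22d3: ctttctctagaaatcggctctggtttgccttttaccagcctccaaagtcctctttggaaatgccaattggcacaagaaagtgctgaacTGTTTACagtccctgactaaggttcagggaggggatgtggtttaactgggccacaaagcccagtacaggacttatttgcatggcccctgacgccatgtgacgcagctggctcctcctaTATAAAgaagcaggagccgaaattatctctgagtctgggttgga
Errfi1: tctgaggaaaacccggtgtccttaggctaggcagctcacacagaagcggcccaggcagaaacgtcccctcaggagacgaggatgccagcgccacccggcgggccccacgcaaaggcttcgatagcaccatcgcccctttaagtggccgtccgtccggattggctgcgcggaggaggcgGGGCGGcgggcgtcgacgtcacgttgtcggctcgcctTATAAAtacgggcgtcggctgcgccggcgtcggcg
Klf9: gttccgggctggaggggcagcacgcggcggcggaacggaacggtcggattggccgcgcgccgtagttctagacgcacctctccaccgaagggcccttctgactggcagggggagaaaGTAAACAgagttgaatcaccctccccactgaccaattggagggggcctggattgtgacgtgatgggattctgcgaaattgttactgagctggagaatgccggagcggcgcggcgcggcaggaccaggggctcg
Pdk4: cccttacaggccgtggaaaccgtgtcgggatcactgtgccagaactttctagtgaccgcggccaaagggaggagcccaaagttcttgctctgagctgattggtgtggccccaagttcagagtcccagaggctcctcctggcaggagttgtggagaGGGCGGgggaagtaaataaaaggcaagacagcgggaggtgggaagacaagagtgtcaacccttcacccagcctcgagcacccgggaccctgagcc

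In prostate of castrated males, DHT lowered Cebpd and Errfi1 and raised none of the 10 genes past the threshold when the prostate arrays were fitted alone. In the fit over all tissues, Cebpd fell, Tsc22d3 rose (adjusted p = 0.0238) and Errfi1 did not pass (0.0864). Cebpd encodes CCAAT/enhancer binding protein delta, a transcription factor of the acute-phase response. Its level was 4.16, 4.29 and 4.31 on DHT arrays, against 5.73, 5.80 and 5.35 on vehicle arrays. Every DHT array lay below every vehicle array, and the DHT arrays were close together. The fall was 2.59-fold (log2 fold change -1.37 ± 0.17, SE, adjusted p = 0.00891, limma). Errfi1, which encodes an intracellular inhibitor of the epidermal growth factor (EGF) receptor, had levels of 3.51, 3.43 and 3.81 with DHT, against 4.42, 4.61 and 4.27 with vehicle. The groups did not overlap, and the fall was 1.80-fold (-0.85 ± 0.18, adjusted p = 0.0336). Of 9 genes tested, 0 rose and 2 fell, while 9.64% of all 23829 genes tested in prostate were called, 5.03% higher and 4.61% lower.

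The best-known glucocorticoid readout, Tsc22d3, which encodes the anti-inflammatory leucine zipper protein GILZ, did not pass in the fit of prostate alone. Its level was 6.34, 5.79 and 6.03 with DHT, against 4.40, 5.05 and 5.60 with vehicle. All 3 DHT arrays were higher than all 3 vehicle arrays, but vehicle arrays spread over more than 1 unit (1.04 ± 0.33, adjusted p = 0.101). On its other probe the values were -0.14, 0.31 and 0.28 with DHT, against -0.76, -0.78 and -0.13 with vehicle, which overlap by 1 array (0.71 ± 0.24, adjusted p = 0.116 among probes). Without prostate vehicle array 3, the one with 1531 spots marked as outliers, the Tsc22d3 difference was 1.33 ± 0.27 with an adjusted p of 0.0357, and with array weights it was 1.01 ± 0.24 (0.0302). Array weights called 2918 of all genes higher and 2240 lower, against 1199 and 1099 without them. Tsc22d3 did not pass when any other array was left out (adjusted p up to 0.220). Nor did it pass with quantile normalization, normexp background correction, no filter on dim probes, the percentile over all spots or the replicate block.

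Klf9 and Ddit4 pointed down in prostate without passing. Klf9, a zinc finger transcription factor that in other tissues is among the early glucocorticoid targets, had 2.65, 2.59 and 2.92 with DHT, against 3.19, 3.22 and 3.44 with vehicle (-0.56 ± 0.16, adjusted p = 0.0826). All DHT arrays were lower than all vehicle arrays, and the same held on its other probe (-0.55 ± 0.21). Ddit4, which encodes the mTORC1 inhibitor REDD1, had -1.23, -1.09 and -1.36 with DHT, against -0.82, -0.41 and -0.47 with vehicle, again without overlap (-0.65 ± 0.18, adjusted p = 0.0680). Klf9 passed with quantile normalization (adjusted p = 0.0418), and both genes passed with array weights (0.0494 for Klf9 and 0.0250 for Ddit4), which raised the calls over all genes as given above. Neither passed when any 1 array was left out (adjusted p up to 0.228 for Klf9 and 0.191 for Ddit4). Neither passed with normexp background correction, no filter on dim probes, the percentile over all spots, the replicate block or the fit over all tissues. In all, groups did not overlap for 5 of 9 genes, 1 above and 4 below, against 35.8% of all genes (19.3% above and 16.5% below).

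The remaining genes showed smaller or less even differences in prostate. Sgk1, which encodes a kinase that keeps sodium channels at the membrane, had 0.98, 1.80 and 1.50 with DHT, against 1.04 and 1.17 on vehicle arrays 1 and 2, its spot on vehicle array 3 being marked as an outlier (0.32 ± 0.28, adjusted p = 0.509). The cell cycle inhibitor gene Cdkn1a, which encodes p21, differed between its probes: 3.48, 3.33 and 3.87 with DHT against 3.11, 3.62 and 2.38 with vehicle on the brighter, and -1.88, -2.09 and -1.68 with DHT against -3.08, -2.51 and -4.55 with vehicle on the dimmer. Groups overlapped on the brighter probe (0.52 ± 0.33) and not on the dimmer (1.49 ± 0.50), and neither passed (adjusted p = 0.357 among genes and 0.113 among probes). Glul, the enzyme that makes glutamine, differed by 0.12 ± 0.18, and Angptl4, a secreted inhibitor of lipoprotein lipase, by -0.05 ± 0.47. Pdk4 was not well above background on any prostate array.

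Errfi1 lost its call when any 1 array other than vehicle array 3 was left out (adjusted p up to 0.121), without the filter on dim probes (0.112), with normexp background correction (0.275), with the percentile over all spots (0.0865) and with the replicate block (0.154), besides the fit over all tissues given above. Adipocyte markers moved with DHT in prostate: over 8 genes their mean level was 0.90 to 1.30 on DHT arrays and -0.11 to 0.48 on vehicle arrays, with Lep not well above background on any of them. Leukocyte markers (5 genes) had means of 2.14 to 2.55 with DHT and 2.50 to 2.83 with vehicle. Endothelial markers (3 genes) had -0.10 to 0.24 with DHT and -1.41 to -0.09 with vehicle. Of the keratin markers, Krt14 (-1.18 ± 0.23) and Krt8 (-0.99 ± 0.21) passed as lower. Krt5 (-0.16 ± 0.14), Krt15 (-0.06 ± 0.18), Krt1 (0.45 ± 0.27) and Krt18 (0.48 ± 0.36) did not pass. The part of any of these cell types in the Cebpd and Errfi1 values was not tested.

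**Figure D1:**
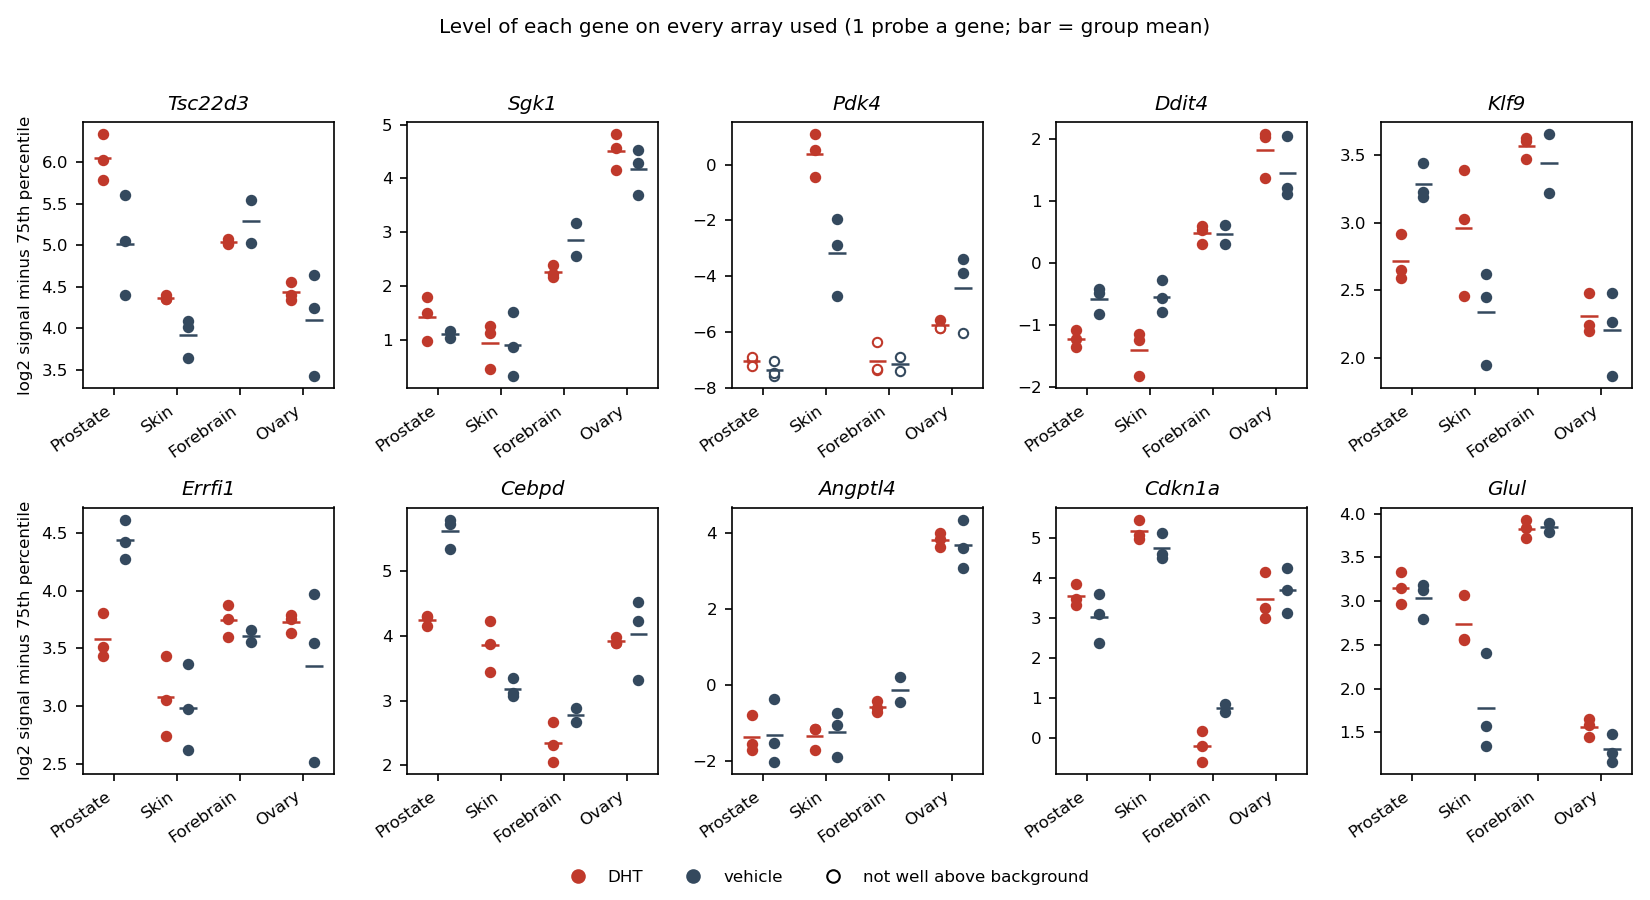
Level of each of the 10 genes (y axis, log2 signal minus the array's 75th percentile, 1 probe a gene) on each array used, by tissue (x axis), with DHT in red left of vehicle in blue, bars at the group means and open points where the spot was not well above background. Cebpd and Errfi1 in prostate show DHT arrays below all vehicle arrays, and Pdk4 in skin shows DHT arrays at -0.45 to 1.09 above vehicle arrays at -4.69 to -1.95.

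In skin, Pdk4 had the largest difference of the 10 genes, but no gene of the array passed in that tissue. Pdk4 encodes a mitochondrial kinase that switches off pyruvate dehydrogenase and so spares glucose. Its level was 1.09, -0.45 and 0.52 on DHT arrays, against -4.69, -2.87 and -1.95 on vehicle arrays. All DHT arrays lay above all vehicle arrays, and the difference was 3.56 ± 0.75 (SE), or 11.8-fold, with an unadjusted p of 0.00229 and an adjusted p of 0.753. Of 24125 genes tested in skin, 0 had an adjusted p under 0.05 and 1193 (4.95%) an unadjusted one. The lowest adjusted p in skin was that same 0.753.

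Pdk4 is abundant in skeletal muscle, and skin arrays carried muscle transcripts to unequal extents. The 7 muscle markers on the array had a mean level of 11.15, 8.59 and 9.22 on DHT arrays 1 to 3, against -2.0, 9.74 and 9.63 on vehicle arrays 1 to 3, and all 7 were well above background on every skin array. Spots marked as outliers were left out of these means. Ckm and Actn3, for example, had values on 2 DHT skin arrays, so not every mean rests on all 7 genes. DHT array 1, highest in muscle markers, was also highest in Pdk4, and vehicle array 1, lowest in muscle markers, was lowest in Pdk4. DHT arrays 2 and 3 had lower muscle marker levels and higher Pdk4 than vehicle arrays 2 and 3. Without vehicle array 1, the Pdk4 difference was 2.80 ± 0.54, and with the muscle level as a covariate it was 2.76 ± 0.46 (adjusted p = 0.998 in both). Normexp background correction gave 1.86 ± 0.48. The covariate was that same marker mean, so it too rests on uneven sets of genes. The part of muscle in the Pdk4 values was not tested otherwise.

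**Figure D2:**
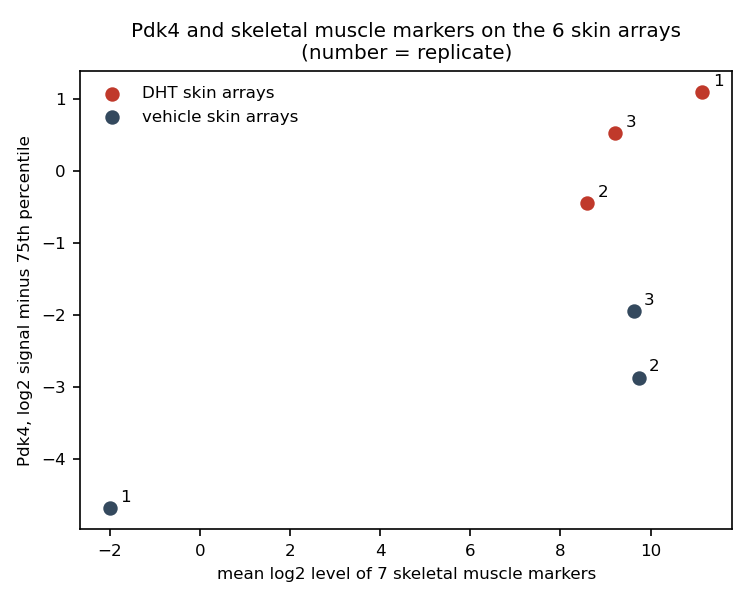
Level of Pdk4 (y axis, log2 signal minus the array's 75th percentile) against the mean level of 7 skeletal muscle markers (x axis, same scale) on the 6 skin arrays, DHT in red and vehicle in blue, numbered by replicate. Marker spots marked as outliers are left out of that mean. DHT array 1 is highest on both axes, vehicle array 1 stands apart at -2.0 on the muscle axis with the lowest Pdk4, and the other vehicle arrays lie at 9.63 and 9.74, within the DHT range of 8.59 to 11.15, with lower Pdk4.

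Hair follicle markers differed as well. Over 5 genes their mean level was -3.27, 0.85 and 1.23 on DHT arrays 1 to 3, against 2.38, 1.24 and 1.72 on vehicle arrays 1 to 3, with 3 of 5 genes well above background on DHT array 1 and all 5 on every other skin array. DHT array 1, which stood apart in these markers, had the highest level of Pdk4, Cebpd, Glul, Klf9, Tsc22d3 and Cdkn1a among the skin arrays, on the brighter probe of genes with 2. It also had the lowest 75th percentile of the skin arrays (55.4), and vehicle array 1 the highest (378.9). Without DHT array 1 the differences were 3.21 ± 0.84 for Pdk4, 0.49 ± 0.29 for Cebpd, 0.79 ± 0.39 for Glul and 0.40 ± 0.35 for Klf9. The part of hair follicles or of array brightness in the values of these genes was not tested.

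Other genes in skin differed by less than Pdk4. Glul had 3.07, 2.57 and 2.56 with DHT, against 1.57, 2.41 and 1.34 with vehicle, with no overlap (0.96 ± 0.36), but its other probe gave -0.16 ± 0.37. Cebpd had 4.23, 3.88 and 3.45 with DHT, against 3.07, 3.11 and 3.36 with vehicle (0.68 ± 0.29). Here the DHT arrays were all higher than the vehicle arrays, the opposite side from prostate. Ddit4 had -1.24, -1.83 and -1.15 with DHT, against -0.27, -0.79 and -0.56 with vehicle, all lower (-0.86 ± 0.30). Tsc22d3 had 4.40, 4.35 and 4.35 with DHT, against 3.64, 4.02 and 4.08 with vehicle, all higher by a small margin (0.45 ± 0.25). Klf9 was 0.62 ± 0.34 higher with overlapping arrays, and higher without overlap on its other probe (0.60 ± 0.30). The remaining differences were 0.43 ± 0.29 for Cdkn1a, 0.09 ± 0.32 for Errfi1, 0.04 ± 0.40 for Sgk1 and -0.11 ± 0.38 for Angptl4. Groups did not overlap for 5 of 10 genes, 4 above and 1 below, against 12.3% of all genes in skin (6.08% above and 6.18% below), and the adjusted p was 0.753 or more for each.

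In forebrain, where 2 vehicle arrays remained, the differences that stood out were falls. Cdkn1a had -0.58, -0.19 and 0.19 with DHT, against 0.86 and 0.66 with vehicle (-0.95 ± 0.25, adjusted p = 0.0987), and its dimmer probe was not well above background on any forebrain array. Sgk1 had 2.17, 2.39 and 2.22 with DHT, against 3.17 and 2.56 with vehicle (-0.61 ± 0.21, adjusted p = 0.152). Cebpd had 2.32, 2.67 and 2.06 with DHT, against 2.89 and 2.67 with vehicle (-0.43 ± 0.21, adjusted p = 0.258). Its highest DHT array and lowest vehicle array were nearly equal. None of the 9 genes tested passed, and 0 of 26361 genes did, although 7234 (27.4%) had an unadjusted p under 0.05 and the lowest adjusted p was 0.0715. The 3 genes whose DHT arrays all lay below the vehicle arrays compare with 24.2% of all genes in that direction, and 0 lay above against 23.1% (47.3% in either).

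The other 6 forebrain differences were -0.45 ± 0.23 for Angptl4, -0.25 ± 0.18 for Tsc22d3, 0.13 ± 0.17 for Klf9, 0.13 ± 0.14 for Errfi1, 0.02 ± 0.17 for Ddit4 and -0.02 ± 0.13 for Glul, which in brain is made by astrocytes. Cell type markers also differed between the forebrain groups. Oligodendrocyte markers (6 genes) had means of 3.61 to 4.11 with DHT and 4.65 to 4.94 with vehicle. Astrocyte markers (8 genes) had 2.60 to 2.62 with DHT and 2.90 to 3.18 with vehicle, and neuronal markers (8 genes) 3.03 to 3.16 with DHT and 2.58 to 2.64 with vehicle. Endothelial markers (3 genes) had 0.48 to 0.91 with DHT and 0.91 to 1.38 with vehicle. Leukocyte markers (5 genes) had 0.27 to 0.47 with DHT and 0.65 to 1.09 with vehicle. The widest gap was in skeletal muscle markers, at -3.14, -4.58 and -4.62 with DHT, where 7, 4 and 4 of 7 genes were well above background, against -0.70 and -0.66 with vehicle, where all 7 were. All oligodendrocyte, endothelial, astrocyte and neuronal markers were well above background on these arrays, and the part of any of these cell types in the Cdkn1a, Sgk1 and Cebpd values was not tested.

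In ovary of intact females, none of the 10 genes passed and none had groups that did not overlap, against 14% of all genes (2.7% above and 11.3% below). The largest difference was that of Pdk4, at -5.86, -5.55 and -5.84 with DHT, against -3.88, -6.04 and -3.37 with vehicle (-1.32 ± 0.69, adjusted p = 0.502). Muscle markers had means of -3.27 to -2.79 with DHT and -2.43 to -1.64 with vehicle in ovary. The Pdk4 values lie near the array's background: 2 of 3 arrays were well above it in each group. Vehicle arrays 1 and 3, which gave the 2 high values, are those with 96.5% and 97.0% of probes well above background, and with quantile normalization the Pdk4 difference was 0.51 ± 0.23. For the other 9 genes the ovary differences lay between -0.22 (Cdkn1a) and 0.38 (Errfi1), with adjusted p of 0.669 or more. Tsc22d3, for example, had 4.34, 4.40 and 4.56 with DHT, against 3.42, 4.24 and 4.65 with vehicle (0.33 ± 0.36). Of 29457 genes tested in ovary 0 passed, with 3129 at an unadjusted p under 0.05, of which 3051 were lower. With quantile normalization 1155 of 2962 such genes were lower, and the median of all genes moved to 0.09, against -0.23.

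**Figure D3:**
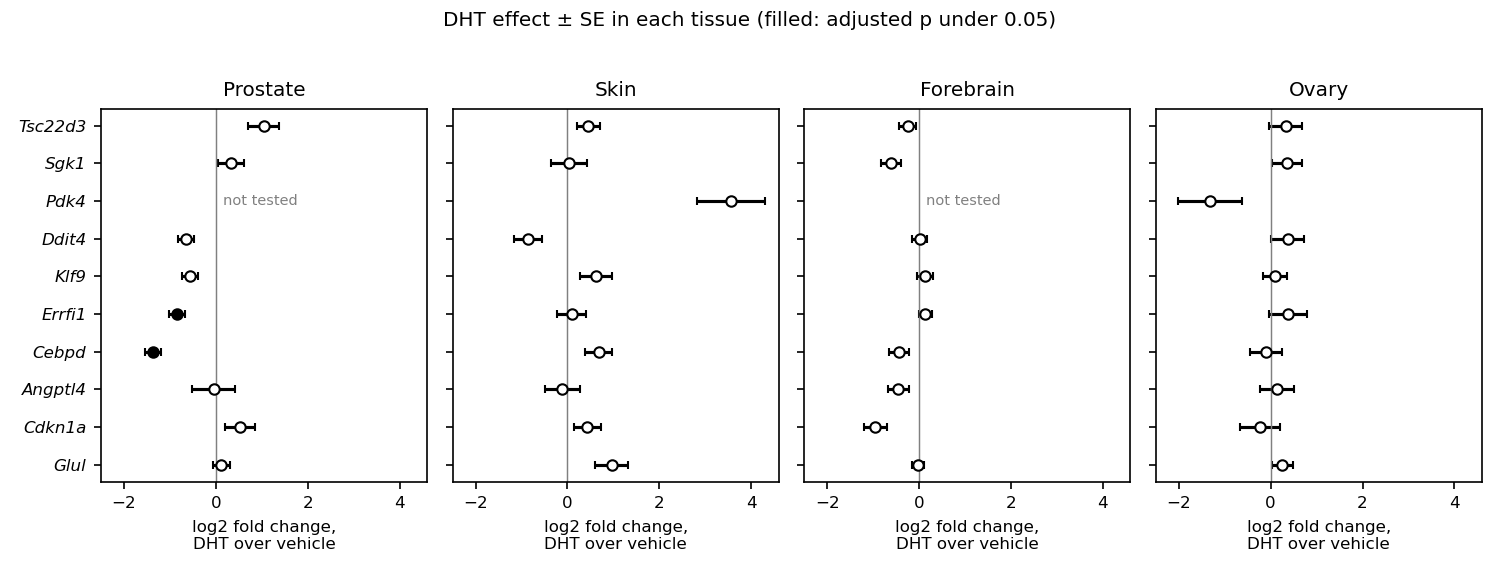
Difference between DHT and vehicle for each gene (x axis, log2 fold change ± SE) in the 4 tissues, with filled points where the adjusted p was under 0.05. The 2 filled points are Cebpd (-1.37) and Errfi1 (-0.85) in prostate, and Pdk4, not tested in prostate or forebrain, lies at 3.56 in skin.

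Across tissues, the response of Cebpd differed, and that of Klf9 differed between prostate and skin alone among the pairs of tissues tested. A moderated F test over the 20780 genes kept in all 4 tissues called Cebpd alone among 9 genes (adjusted p = 0.0122), against 4.89% of all genes. The Cebpd effect was 2.05 ± 0.36 log2 units lower in prostate than in skin, with an adjusted p of 0.00246 (difference -2.05), where 5.26% of genes differed. Set against ovary its prostate effect differed by -1.27 ± 0.36 (adjusted p = 0.0646) and against forebrain by -0.92 ± 0.38 (0.185). Klf9 likewise differed between prostate and skin, by -1.18 ± 0.31 (adjusted p = 0.0346), while its F test did not pass (0.103). That Klf9 difference lost its call without the slide block (-1.18 ± 0.33, 0.0535) and without ovary vehicle arrays 1 and 3, prostate vehicle array 3 and skin vehicle array 1 (-0.90 ± 0.32, 0.108), and Cebpd kept its own between prostate and skin in both. For Tsc22d3 the effect in prostate exceeded that in forebrain by 1.34 ± 0.39 (adjusted p = 0.0657). For Errfi1, with its call in prostate, the F test gave an adjusted p of 0.145, and its prostate effect was not told apart from that in any other tissue (adjusted p of 0.103 or more). Of all genes, the effect differed for 3.32% between prostate and forebrain and 2.74% between prostate and ovary. It differed for 0.135% between skin and forebrain, 0.0577% between skin and ovary and 0.0192% between forebrain and ovary, and for none of the 9 genes in these pairs.

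None of the 9 genes tested in all 4 tissues changed on average over them, and Pdk4 could not be included. The mean effects with the lowest adjusted p were those of Glul (0.33 ± 0.14, adjusted p = 0.343) and Tsc22d3 (0.38 ± 0.16, 0.356), and 44 of the 20780 genes rose (0.212%) and 22 fell (0.106%) on that measure. Over single tissues, 38 gene and tissue pairs were tested, of which 2 passed. For comparison, Fkbp5 rose by 2.52 ± 0.21 in prostate (adjusted p = 0.00556, 2 DHT arrays). Zbtb16 differed by 1.40 ± 0.39 in prostate, 1.48 ± 0.37 in skin, 1.31 ± 0.28 in forebrain and -0.36 ± 0.81 in ovary without passing in any of them.

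Without DHT the genes differed in where they were high, as most genes of the array did: in vehicle tissues, 62.9% of genes differed in level between prostate and skin, 61.4% between skin and forebrain, 59.4% between prostate and forebrain, 55.8% between skin and ovary, 53.6% between forebrain and ovary and 43.5% between prostate and ovary. Among the transcriptional regulators, Tsc22d3 averaged 5.29 ± 0.36 in vehicle forebrain (SD, n = 2) and 5.02 ± 0.60 in prostate (n = 3), which did not differ beyond their spread (adjusted p = 0.347), and then 4.10 ± 0.62 in ovary and 3.91 ± 0.24 in skin, which did not differ either (0.552). The step between prostate and ovary passed (0.00774). This order is that of the brighter probe: on the other, skin had the highest vehicle mean, at -0.20 ± 0.70, before prostate at -0.56 ± 0.37, forebrain at -0.81 ± 0.01 and ovary at -1.03 ± 0.59, and no test was made on it. Klf9 had a like order in part, with 3.44 ± 0.31 in forebrain and 3.28 ± 0.14 in prostate, not told apart (0.559), above 2.34 ± 0.35 in skin and 2.20 ± 0.31 in ovary (0.622 between them). Cebpd was highest in vehicle prostate at 5.63 ± 0.24, above ovary at 4.03 ± 0.63 (4.83e-05), which was above skin at 3.18 ± 0.16 (0.00788). Forebrain, at 2.78 ± 0.15, did not differ from skin (0.256). The level of Cebpd in DHT prostate, 4.25 ± 0.08, was thus near that in vehicle ovary, a comparison of values only.

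Among the signalling genes, Sgk1 was highest in vehicle ovary at 4.17 ± 0.43, above forebrain at 2.87 ± 0.43 (adjusted p = 0.00256). Forebrain was above prostate at 1.11 ± 0.09 (0.000489), while prostate and skin, at 0.91 ± 0.60, did not differ (0.718). Ddit4 followed the same order at the top, with 1.46 ± 0.52 in ovary and 0.47 ± 0.22 in forebrain (0.00772), then -0.54 ± 0.26 in skin and -0.57 ± 0.22 in prostate (0.924 between them). Errfi1 was highest in vehicle prostate at 4.44 ± 0.17, above forebrain at 3.61 ± 0.07 (0.0294), and forebrain, ovary (3.35 ± 0.75) and skin (2.99 ± 0.37) were not separated from their neighbours in this order. Among the vehicle tissues, both genes that DHT lowered in prostate had their highest level in prostate. The vehicle prostate arrays give both that level and the baseline of the falls, so the ranking is not separate evidence. With DHT, Errfi1 averaged 3.58 ± 0.20 in prostate, near the 3.61 of vehicle forebrain.

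Among the metabolic genes, Angptl4 was far higher in ovary than elsewhere, with 3.69 ± 0.64 in vehicle ovary and -0.13 ± 0.47 in forebrain (adjusted p = 2.91e-07). Skin, at -1.23 ± 0.60, was below forebrain (0.0321) and did not differ from prostate at -1.30 ± 0.85 (0.861). Glul was highest in forebrain at 3.85 ± 0.07, above prostate at 3.03 ± 0.21 (0.00891), which was above skin at 1.77 ± 0.56 (7.1e-05). Ovary, at 1.30 ± 0.17, was not separated from skin (0.0753). The Glul steps are those of its brighter probe. On the other, vehicle means were 3.21 ± 0.13 in forebrain, 1.43 ± 0.35 in prostate, 1.28 ± 0.29 in skin and -0.66 ± 0.11 in ovary. There prostate and skin lay close together and ovary well below skin, and no test was made on it. Pdk4 averaged -3.17 ± 1.39 in vehicle skin and -4.43 ± 1.42 in vehicle ovary, and was not well above background in vehicle forebrain or prostate, so no order was tested. The cell cycle gene Cdkn1a was highest in skin at 4.75 ± 0.33, above ovary at 3.71 ± 0.56 (0.0137). Ovary and prostate, at 3.04 ± 0.62, did not differ (0.117), and forebrain was lowest at 0.76 ± 0.14 (4.19e-05).

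Across the 23 arrays of all tissues, the genes most alike in level to one another were Sgk1 and Angptl4 (Pearson r = 0.94), Sgk1 and Ddit4 (0.89), and Klf9 and Glul (0.88). Outside the 10, the named genes with the highest r were Mylk2 and Cpt1b for Pdk4 (0.94 each), Anxa5 for Angptl4 (0.97), Mmp2 for Cdkn1a (0.97), Tpst2 for Sgk1 (0.96), Bok for Ddit4 (0.95), Adcy2 for Glul (0.95) and for Klf9 (0.92), Ak3 for Cebpd (0.93) and Zbtb43 for Errfi1 (0.88). These values describe 4 tissues more than 23 separate samples, since arrays of a tissue share its cell makeup, and Sgk1 and Mmp2 rest on 22 arrays.

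Genes related to the 10 by hormone, pathway or family were read from the same fits in 8 lists of 142 genes, none of which passed in skin, forebrain or ovary. In prostate, 28 of the 102 tested passed (27.5%), 10 higher and 18 lower, beside 9.64% of all genes, 5.03% higher and 4.61% lower. The lists were chosen with results of these data known, so their share is a description. Of 20 other glucocorticoid-induced genes 4 rose and 1 fell, with a median log2 fold change of 0.17 against 0.06 over all genes. Those that rose were Fkbp5, Gadd45g (1.93 ± 0.36), Sult1a1 (1.08 ± 0.20) and the metabolic regulator Klf15 (1.03 ± 0.20), and Gadd45b, a stress gene, fell (-1.47 ± 0.16). None of 8 genes for receptors and steroid access passed. Among these, Nr3c1, the glucocorticoid receptor gene, differed by -0.39 ± 0.15 in prostate (adjusted p = 0.155) and was named after its value had been seen.

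The lists nearest to Cdkn1a and Errfi1 fell in part in prostate. Of all genes there, 5.03% were called higher and 4.61% lower, with a median of 0.06. These lists too were chosen with results of these data known. Of 11 p53 targets 0 rose and 4 fell, with a median of -0.67: the antiproliferative gene Btg2 (-1.88 ± 0.15), Tp53inp1 (-1.28 ± 0.25), the proapoptotic gene Bbc3 (-0.91 ± 0.15) and Plk2 (-0.80 ± 0.15). Cdkn1a itself was not lower, at 0.52 ± 0.33. Of 9 EGF receptor feedback genes 0 rose and 2 fell, with a median of -0.30: the phosphatase gene Dusp5 (-1.19 ± 0.16) and Hbegf, which encodes a ligand of the receptor (-1.36 ± 0.28). Of 15 genes paralogous to the 10, 1 rose (Klf15) and 2 fell, Klf6 (-1.14 ± 0.16) and Klf10 (-0.93 ± 0.18), with a median of -0.34.

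The lists nearest to the metabolic genes moved both ways in prostate, beside the same 5.03% higher and 4.61% lower over all genes. Of 21 genes of fuel switching under FOXO and PPAR factors, 3 rose and 3 fell (median 0.02), among them Cpt1a, the gate of mitochondrial fatty acid oxidation (-1.92 ± 0.20), the muscle ubiquitin ligase gene Fbxo32 (-1.10 ± 0.18), and the fatty acid carriers Fabp4 (1.30 ± 0.18) and Cd36 (1.18 ± 0.17). Fabp4 and Cd36 are also among the adipocyte markers given above. Of 13 hypoxia and amino acid stress genes, a group that Ddit4 is often placed with, 3 rose and 4 fell (median -0.28), among them Ndrg1 (-1.87 ± 0.21), Trib3 (-1.65 ± 0.23), Egln3 (-1.03 ± 0.16) and the vasodilator peptide gene Adm (1.71 ± 0.26). Of 10 genes of glutamine and glutamate metabolism 0 rose and 2 fell, among them the glutamate transporter gene Slc1a3 (-0.63 ± 0.14), with a median of -0.01.

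**Figure D4:**
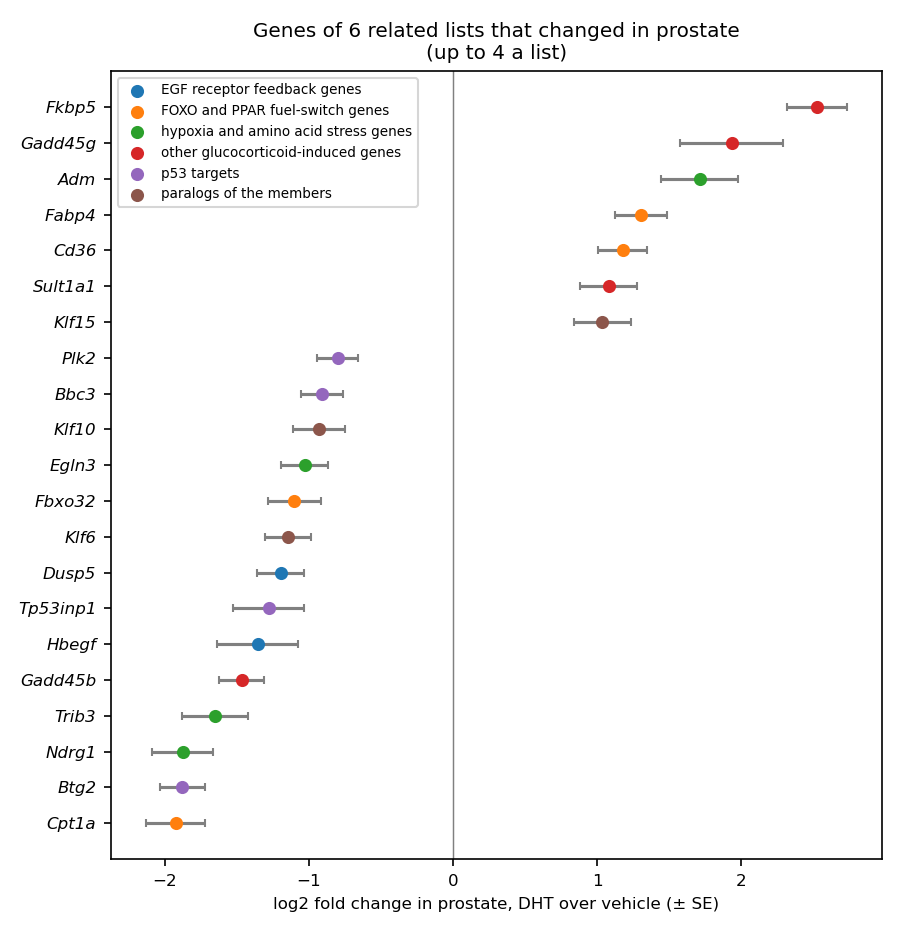
Log2 fold change of DHT over vehicle in prostate (x axis, ± SE, n = 3 arrays a group, 2 DHT arrays for Fkbp5) for 21 genes of 6 related lists with an adjusted p under 0.05, at most 4 a list by smallest adjusted p, coloured by list, with Klf15 coloured by its paralogy. The 7 drawn genes that rose run up to 2.52 (Fkbp5) and the 14 that fell down to -1.92 (Cpt1a). Only called genes are drawn, and those of the p53 and EGF receptor lists all fell. Of the genes tested in these lists, 2 of 11 and 3 of 9 had a positive difference.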

How the data were processed

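RNA was amplified and labelled with Cy3 and hybridised to one-colour Agilent rat arrays, per the labels' protocols. The deposited values are linear spot intensity after background subtraction, with no normalization between arrays, per the file headers. These name Agilent Feature Extraction 10.5.1.1 as the software, where the submitters' processing notes give 10.1 and limma. The array design names build rn4. Control spots (1417 of 42429) and spots marked as outliers were left out. Accessions were matched to symbols through a GRCr8 table, used for names only, which named 10813 of 41012 probes.

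Values tested were log2 intensity minus the 75th percentile of the array. Probes well above background on at least 3 arrays were kept, and the brightest probe stood for a gene. Each tissue was fitted with limma 3.58.1 in R 4.3.3 (lmFit, eBayes, Benjamini-Hochberg over all genes, threshold 0.05). Differences between tissues and vehicle levels came from 1 fit over 23 arrays with slide as a random block (correlation 0.105, estimated on 2000 genes). The fits were tested on simulated data. Scripts named all 10 genes, up to 4 called genes of each related list, and the genes most alike in level. Some genes that these rules name are not reported here. The 10 genes and the lists were chosen with earlier results of these data known. The design text calls the 3 samples of a group biological replicates, and p-values measure the spread between them. The number of arrays limits the precision.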

Additional observations from a re-analysis of the deposited data

Results flagged for a closer look

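The effect of DHT on Cebpd differed between tissues, with an adjusted p of the moderated F test of 0.0122, and it was lower in prostate than in skin by 2.05 log2 units (difference -2.05 ± 0.36). Cebpd was lower with DHT on every prostate array and higher with DHT on every skin array, when set against every vehicle array of the tissue. The same pair of tissues differed for Klf9, with a difference of -1.18 ± 0.31 between the effect in prostate and the effect in skin. It did not pass without the slide block (adjusted p = 0.0535). The brighter and the dimmer Klf9 probe gave the same directions, down in prostate and up in skin.

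Pdk4 was well above background on the forebrain vehicle array that was left out for its quality, at a level of -2.40, and on no other forebrain array. On that array 98.4% of probes were well above background.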

How the results depend on the processing

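Precision was limited by 3 arrays a group (2 in vehicle forebrain), and low signals by the background of the array. Of 307 recomputed single-tissue values of the 10 genes, other than with 1 array left out, 273 kept their direction and their side of the threshold, and of 81 vehicle level differences 69 did. The Cebpd fall in prostate kept its call under quantile normalization, normexp, no filter, array weights, the percentile over all spots, the fit over all tissues and without any 1 array (adjusted p up to 0.0444), and lost it with the replicate block (0.0780). Normexp used the median spot signal, as the mean was not in the files. The percentile over all spots, outliers included, was chosen after seeing the data. The cause of the changes below was not tested.

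No label says that same-numbered DHT and vehicle arrays are pairs. Correlations of their deviations from the group means were -0.43 to 0.01. Deviations within so small a group are tied to one another, so these values do not settle whether samples were paired. With the replicate block 0 genes, 0 of the 10 genes and 0 of the related genes were called in prostate, where Errfi1 had an adjusted p of 0.154. In prostate, 2298 genes were called, against 608 with normexp, 619 with no filter, 5158 with array weights and 596 to 2739 without 1 array. Of the 10 genes, 1 was called with normexp, with no filter and with the percentile over all spots, 2 in the fit over all tissues (Tsc22d3 and Cebpd), 3 with quantile normalization (Klf9, Errfi1 and Cebpd), 5 with array weights and 1 to 3 without 1 array. Of the related genes, 12 were called with normexp, 9 with no filter, 49 with array weights and 7 to 31 without 1 array. In skin 4 genes were called in the fit over all tissues and 0 to 0 without 1 array. In forebrain 762 genes (4 related) were called with normexp, 33 in the fit over all tissues and 0 to 49 without 1 array, the 49 without vehicle array 1. In ovary 10 were called with quantile normalization, 38 in the fit over all tissues and 7780 with array weights, of which 2 of the 10 genes (Pdk4 and Errfi1) and 11 related genes. Without 1 array 0 to 7581 were called there, 0 to 1 of the 10 (Pdk4) and 0 to 12 related genes, the highest each without vehicle array 2. The F test called 650 genes with quantile normalization and 592 without the slide block, against 1017, and 3 of the 10 genes (Tsc22d3, Errfi1 and Cebpd) without ovary vehicle arrays 1 and 3, prostate vehicle array 3 and skin vehicle array 1. Of 21 recomputed differences between pairs of tissues 17 kept their side of the threshold. Klf9 between prostate and skin lost its call in 2, as given above, and Cebpd gained one between prostate and ovary with quantile normalization (0.0317) and between prostate and forebrain without those 4 arrays (0.0383). The mean over tissues called 325 genes without the slide block and 119 without those 4 arrays, against 66.

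Turned directions all belonged to uncalled values. Angptl4 became 0.0167 (array weights) and 0.0468 (percentile over all spots) in prostate, 0.0688 (array weights) and 0.16 (muscle covariate) in skin, -0.0274 (quantile), -0.0227 (normexp) and -0.29 (array weights) in ovary, and 0.0020 on average without the 4 arrays. On other probes Cdkn1a became -0.0596 and Glul -0.16 in skin, Tsc22d3 0.19 and Glul 0.32 in forebrain, and Tsc22d3 -0.39 and Klf9 -0.12 in ovary. With forebrain vehicle array 3 kept, Tsc22d3 was 0.12 and Glul 0.54. Forebrain Ddit4 was -0.0438 with the replicate block and -0.0130 in the fit over all tissues, and Glul 0.0811 with quantile normalization and 0.0386 with the block. In ovary Pdk4 was 0.51 with quantile normalization and Cebpd 0.41 with array weights. Vehicle skin minus prostate was -0.0625 for Ddit4 with quantile normalization and -0.0633 without the 4 arrays, and -0.15 and -0.47 for Angptl4. Sgk1 in vehicle prostate minus skin was -0.0195 with quantile normalization.

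Leaving out 1 array gave these ranges where a direction turned: in prostate -0.40 to 0.42 for Angptl4 and -0.00084 to 0.21 for Glul; in skin -0.25 to 0.34 for Sgk1, -0.0929 to 0.28 for Errfi1 and -0.45 to 0.14 for Angptl4. In forebrain they were -0.50 to 0.0122 for Tsc22d3, -0.14 to 0.17 for Ddit4, -0.0870 to 0.35 for Klf9 and -0.0702 to 0.0386 for Glul. In ovary they were -0.0097 to 0.60 for Tsc22d3, -0.0654 to 0.24 for Klf9, -0.0350 to 0.69 for Errfi1, -0.46 to 0.15 for Cebpd, -0.16 to 0.48 for Angptl4 and -0.57 to 0.0518 for Cdkn1a.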
